A study of Mus musculus with 24 samples.

Results

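The genes described here are 46 components of the DNA replication machinery, chosen by symbol from a list of origin recognition, licensing, helicase, clamp, polymerase, single-strand binding, nucleotide supply and fork protection genes. All 46 were found once in each of 2 expression tables, among 17501 genes of mouse embryonic stem cells (mESC) and 16024 genes of neural progenitor cells (NPC), and all 46 passed the filter on low values in both. RNA sequencing had been run on 24 libraries, 12 per cell type. Each cell type had 6 Htt genotypes with 2 libraries each. WT libraries came from wild-type cells and KO libraries from an Htt knockout. The other 4 lines were heterozygous knock-ins at Hdh (Htt): Q20 with 20 CAG repeats, Q50 with 50, Q92 with 92 and Q111 with 111. For Q92 the growth protocol instead gives 89 repeats. The mESC were kept on irradiated CF-1 feeder fibroblasts with LIF, and the NPC were derived from mESC in N2B27 medium and expanded on laminin with FGF and EGF. Each allele is 1 line, so repeat length cannot be told apart from other differences between lines. The series asks about repeat expansion and splicing; the tables hold expression per gene.

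Replication starts where the origin recognition complex (ORC) binds DNA. In G1, CDC6 and CDT1 load the MCM2-7 ring there, and geminin blocks CDT1 once S phase begins. In S phase CDC45 and the GINS complex turn the ring into an active helicase, polymerase alpha with primase lays down primers, and polymerases delta and epsilon extend them, held on DNA by the PCNA clamp that replication factor C (RFC) loads. Many of these genes are transcribed under E2F factors as cells pass from G1 into S phase, so their RNA is abundant in dividing populations such as stem cells and progenitors and low in cells that have left the cycle.

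Values are those of the deposited tables, which are named CPM (counts scaled to library size) and carry a further scaling that the sources used here do not describe, and the tests used log2(CPM + 1). Reads recovered from the values ran from 58546211 to 81502284 per mESC library and from 48525333 to 118038952 per NPC library. Htt, the targeted gene, was 124 and 113 CPM in WT, 139 and 68.5 in KO, 146 and 122 in Q20, 152 and 111 in Q50, 106 and 94.4 in Q92 and 99.3 and 91.5 in Q111 of mESC, so the library labelled KO 1 was not below WT and every direction drawn from mESC KO rests on that label. In NPC it was 137 and 177 CPM in WT and 100.1 and 94.9 in KO. Of the defining markers, Pou5f1 was 279.7 to 880.0 CPM in mESC and Nes was 353 to 1273 in NPC. Pou5f1 was also 90.1 and 87.4 CPM in the Q20 NPC libraries, while it was at most 0.405 in the other 10 NPC libraries. Both WT and both KO libraries of NPC stood far apart from each other in the replication genes, as given below. Exons of 17 of the 46 genes overlap exons of another gene in GENCODE M21, and for 7 the overlap with a single gene exceeds 10% of the exon bases. The overlap is largest for Fen1 (78.8%, with the antisense gene Gm10143) and Gins2 (67.3%, with Gse1 on the other strand). The other 5 are Orc2, Rfc2, Rfc4, Orc1 and Rfc5. Whether reads were counted by strand is not given in the sources used here, so the levels of these 7 genes are uncertain.

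The promoters of the genes are shown first because E2F sites are the textbook link between these genes and the cell cycle. RefSeq windows on GRCm38.p6, from 250 bases before to 50 bases after an annotated start, were matched for 37 of the 46 genes, in 43 windows. The E2F consensus was searched on both strands as the letters TTTGGCGC, TTTGCCGC, TTTCGCGC and TTTCCCGC; matches on opposite strands may overlap. It was found in 14 of the 37 genes (37.8%), against 4.67% of the genes tested in NPC and 2.6% of all genes in the table. By window the shares were 32.6%, 3.81% and 2.26%. The 14 genes were Orc1, Orc3, Cdc6, Cdt1, Mcm3, Mcm5, Mcm6, Mcm7, Gins3, Rfc3, Pola1, Pold1, Pold3 and Pole2. The following stretches hold the matches that lie before the RefSeq start of their window, with up to 20 bases on each side. By the gene bounds of GENCODE M21, the stretches of Cdc6, Gins3, Rfc3 and Mcm7 lie within the gene. The Orc1 stretch crosses the GENCODE start. They read 5′ to 3′ on the gene's own strand, and capitals mark the match, which on the gene's strand can be the reverse complement of the letters above.
Mcm6: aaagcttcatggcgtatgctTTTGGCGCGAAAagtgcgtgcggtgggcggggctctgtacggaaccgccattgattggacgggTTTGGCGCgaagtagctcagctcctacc
Mcm5: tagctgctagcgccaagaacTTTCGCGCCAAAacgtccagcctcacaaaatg
Mcm7: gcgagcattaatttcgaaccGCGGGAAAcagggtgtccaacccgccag
Cdc6: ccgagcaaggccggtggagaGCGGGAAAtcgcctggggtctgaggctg
Pola1: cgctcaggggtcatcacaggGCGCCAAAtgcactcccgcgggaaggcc
Orc1: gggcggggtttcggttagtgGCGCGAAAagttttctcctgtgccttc
Rfc3: ccggaagtgacgtcgcacgcTTTCGCGCtc
Orc3: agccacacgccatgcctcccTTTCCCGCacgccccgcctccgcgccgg
Gins3: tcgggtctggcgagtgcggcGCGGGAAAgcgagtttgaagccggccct
The Mcm6 stretch (chr1:128359725-128359835, minus strand) held 3 matches, of which 2 overlap on opposite strands, and the Mcm5 stretch (chr8:75109336-75109387, plus strand) held 2 overlapping matches. Single matches stood in Mcm7 (chr5:138172021-138172068, minus), Cdc6 (chr11:98907993-98908040, plus), Pola1 (chrX:93632266-93632313, minus), Orc1 (chr4:108579407-108579453, plus) and Rfc3 (chr5:151651209-151651238, minus). Orc3 (chr4:34614956-34615003, minus) and Gins3 (chr8:95633498-95633545, plus) also held a single match, though they did not follow the other genes across NPC lines. The CCAAT box, searched as CCAAT on both strands, was in 58.1% of the windows of these genes, against 37.7% of the windows of genes tested in NPC. The CHR element of late cell cycle genes, searched as TTTGAA on both strands, was in 11.6% against 11.8%. A match describes letters in a window and not a bound site.

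The replication genes were almost level across mESC libraries and varied widely across NPC libraries. Summed over the 46 genes, mESC libraries lay between 9449 and 11967 CPM, which was 0.957% to 1.11% of the reads. NPC libraries lay between 2250.4 and 9489 CPM, 0.231% to 0.905% of the reads, a 4.22-fold range against 1.27-fold in mESC. The NPC sums were 2250.4 and 7149.6 in WT, 3884 and 8306 in KO, 3513 and 3639.9 in Q20, 4558 and 5089 in Q50, 6546 and 6247 in Q92, and 9359 and 9489 in Q111. The knock-in sums thus rose from Q20 to Q111 with no overlap between neighbouring lines, while each of WT and KO had a low replicate 1 and a high replicate 2. In bulk RNA, fewer cycling cells and less of each RNA per cell cannot be told apart. For single genes, the highest over the lowest library had a median of 1.70 in mESC and 4.91 in NPC, and the range was wider in NPC for 44 of the 46 genes. The tables were scaled separately, so levels between cell types are only set side by side. For 11 genes every NPC library lay below every mESC library (10.5% of the 12321 genes tested in both), and for 44 the NPC median lay below the mESC median (47.4%).

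**Figure D1:**
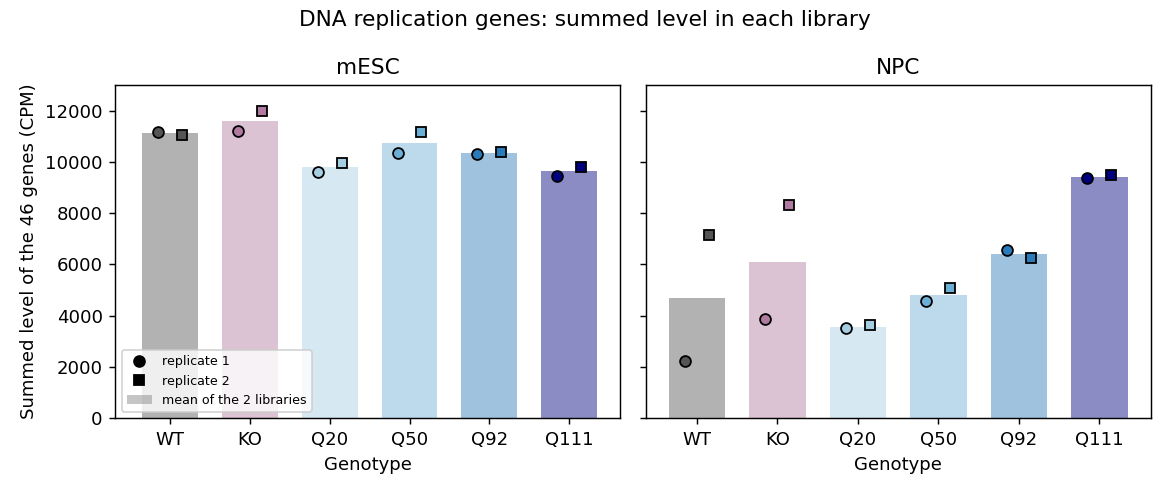
Summed CPM of the 46 replication genes (vertical axis) by Htt genotype (horizontal axis) in mESC and NPC; circles and squares are replicates 1 and 2, and bars are the mean of the 2 libraries. The mESC libraries stay between 9449 and 11967 CPM, while NPC runs from 2250.4 in WT replicate 1 to 9489 in Q111 replicate 2 and rises through the knock-in lines.

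Across the 4 NPC knock-in lines, 36 of the 46 genes rose with CAG length and none fell, by limma on 8 libraries with adjustment over all 13206 genes tested (adjusted p under 0.05). Over all genes 22% were called, 12% rose and 10.1% fell. Changes are given as the log2 change over the 91 repeats from 20 to 111. The median over the 46 genes was 1.17, against 0.04 over all genes, and all 46 estimates were positive, from 0.05 for Orc3 to 2.58 for Tk1. As a ratio of mean CPM, Q111 over Q20 had a median of 2.50 and ranged from 0.834 to 7.28, and it exceeded 2 for 33 genes. Length differs only between 4 lines, and with 1 mean value per line no gene was called (0 of 46, with 36 at an unadjusted p under 0.05), nor any of the 13206. Over all genes the number at that unadjusted p was not counted for this fit, so the 36 has no background beside it. In the fit on 8 libraries that number was 40 of the 46 and 4874 of the 13206. Without the Q111 line 22 of the 46 were called (17.4% of all genes), and without the Q20 line 29 (14.2%).

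**Figure D2:**
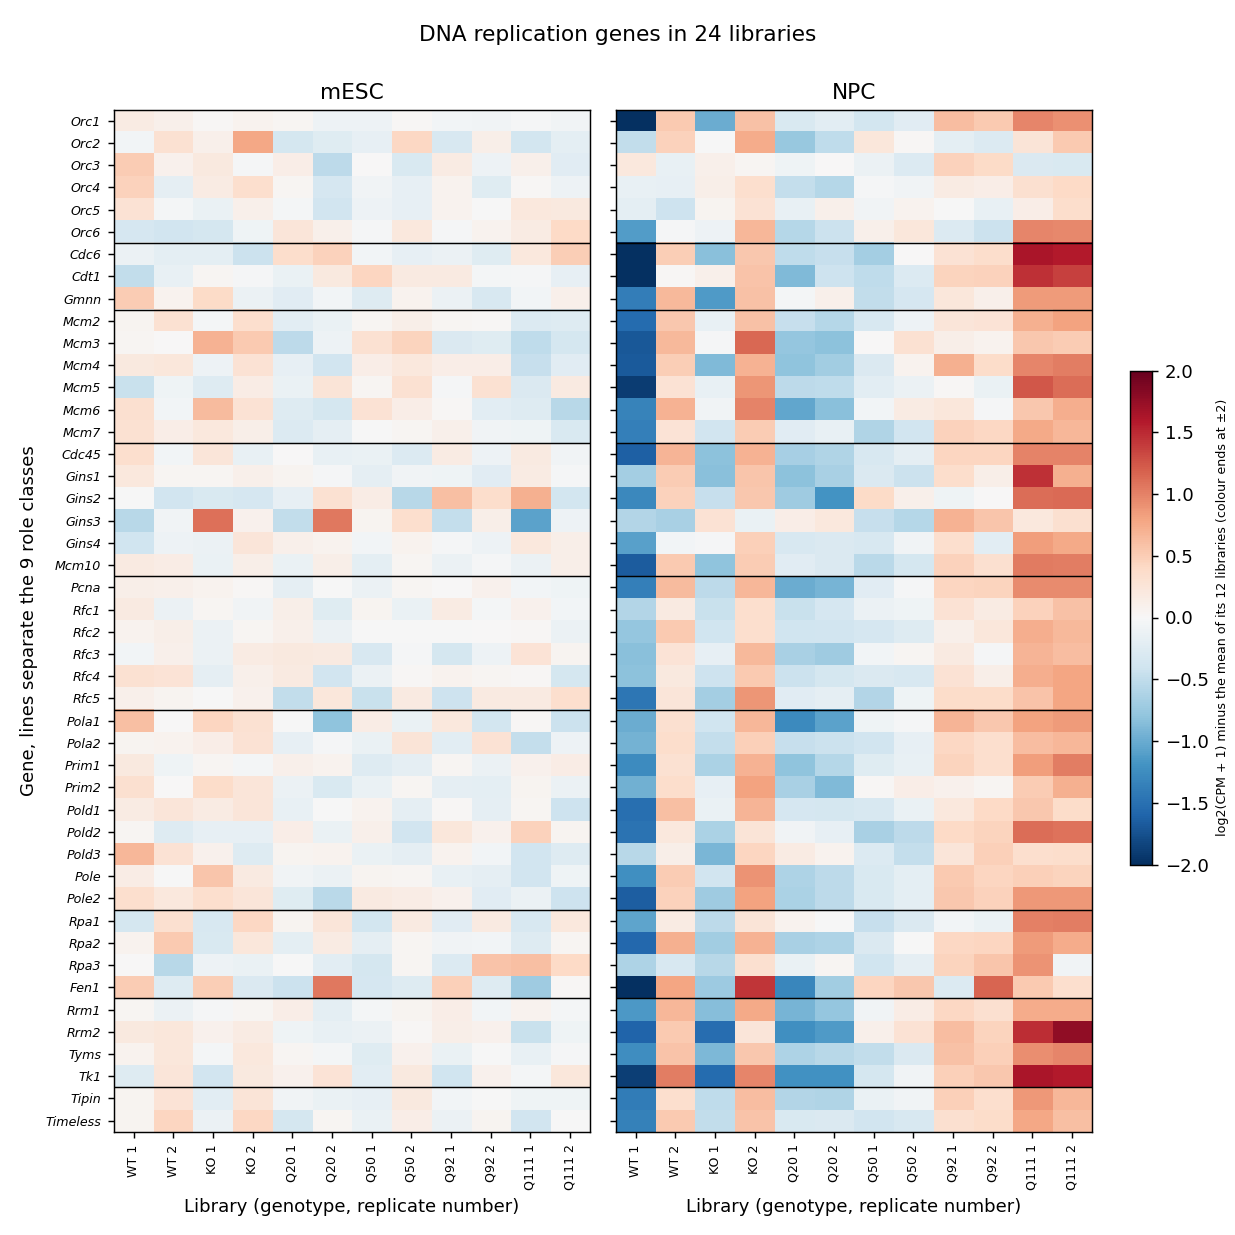
Level of each replication gene (rows, grouped by 9 role classes) in each of 24 libraries (columns, genotype and replicate number) as log2(CPM + 1) minus the gene's mean over the 12 libraries of that cell type. In NPC the WT replicate 1 column is low and both Q111 columns are high for most rows, with Orc3, Orc5 and Gins3 as pale rows, and mESC is pale throughout apart from single values in rows such as Gins3 and Fen1.

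Among the subunits of ORC, the complex that marks origins, 2 of 6 rose along the NPC lines. Orc1, the subunit whose gene is cell-cycle regulated, was 16.0 and 17.1 CPM in the Q20 libraries, 15.3 and 16.9 in Q50, 31.3 and 29.4 in Q92 and 40.2 and 38.6 in Q111. Its log2 change over the length range was 1.30 (SE 0.22, adjusted p 0.00566). Orc4 (ENSMUSG00000026761, chr2:48902824-48950277, minus strand) was 39.0 and 36.4 CPM in the Q20 libraries, 53.9 and 52.2 in Q50, 61.4 and 60.2 in Q92 and 69.0 and 72.6 in Q111. The Orc4 change was smaller, 0.82 (SE 0.14, adjusted p 0.00548), but its replicates lay close together and no pair of libraries overlapped between Q20 and any longer line. Orc6, the most loosely held subunit, was 47.5 and 52.7 CPM in the Q20 libraries, 76.1 and 83.5 in Q50, 58.6 and 52.7 in Q92 and 141 and 138 in Q111, so Q92 was near Q20, Q50 was higher and Q111 highest. Its slope missed the threshold, at 0.97 (SE 0.40, adjusted p 0.112). Orc2 (0.71, SE 0.27, adjusted p 0.0967) and Orc5 (0.17, SE 0.17, adjusted p 0.503) did not pass either. Orc3 (ENSMUSG00000040044, chr4:34570796-34614944, minus strand) was 71.2 and 75.9 CPM in the Q20 libraries, 69.7 and 62.3 in Q50, 104 and 99.1 in Q92 and 61.5 and 61.2 in Q111, so both Q92 libraries were the highest of the knock-in lines and both Q111 libraries the lowest. Its slope was 0.05 (SE 0.27, adjusted p 0.914), and it was the only one of the 46 genes with both Q111 libraries below both Q20 libraries (37.9% of all genes had that order).

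Both factors that load the helicase rose strongly. Cdc6 (ENSMUSG00000017499, chr11:98907801-98923940, plus strand), the ATPase that brings MCM2-7 to ORC, was 27.9 and 28.8 CPM in the Q20 libraries, 24.9 and 40.4 in Q50, 49.3 and 51.8 in Q92 and 127 and 123 in Q111. Both Q111 libraries were above every other NPC library, and the slope was 1.91 (SE 0.37, adjusted p 0.00966). Cdt1 (ENSMUSG00000006585, chr8:122568015-122573554, plus strand), the partner of CDC6 in loading, was 15.0 and 21.1 CPM in the Q20 libraries, 19.7 and 23.4 in Q50, 39.1 and 39.8 in Q92 and 79.9 and 75.0 in Q111. Its Q20 and Q50 libraries overlapped and Q92 and Q111 stood above them, for a slope of 1.97 (SE 0.27, adjusted p 0.00288). Gmnn, which encodes the CDT1 inhibitor geminin, was 32.5 and 36.2 CPM in the Q20 libraries, 23.7 and 26.4 in Q50, 39.4 and 36.1 in Q92 and 61.7 and 61.5 in Q111. It was lower in Q50 than in Q20 and highest in Q111, and its slope of 0.84 (SE 0.31, adjusted p 0.0862) did not pass.

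All 6 genes of the MCM2-7 ring, the motor of the replicative helicase, rose with CAG length. Mcm2 (ENSMUSG00000002870, chr6:88883474-88898780, minus strand) was 170.1 and 158 CPM in the Q20 libraries, 187 and 219.7 in Q50, 277 and 285 in Q92 and 386 and 410.3 in Q111, with a slope of 1.21 (SE 0.14, adjusted p 0.00142). Mcm3 (ENSMUSG00000041859, chr1:20802968-20820312, minus strand) was 137 and 133 CPM in the Q20 libraries, 238 and 291 in Q50, 255 and 247 in Q92 and 342 and 335 in Q111, with a slope of 1.08 (SE 0.24, adjusted p 0.0165). Mcm4 (ENSMUSG00000022673, chr16:15623897-15637400, minus strand) was 145 and 157 CPM in the Q20 libraries, 208 and 267 in Q50, 416 and 329 in Q92 and 501 and 519.7 in Q111, with a slope of 1.69 (SE 0.15, adjusted p 0.000838). In these 3 genes both Q111 libraries were the highest of the knock-in lines and both Q20 libraries the lowest, and Mcm3 was about equal in Q50 and Q92. Mcm5 (ENSMUSG00000005410, chr8:75109569-75128439, plus strand) was 190.1 and 192 CPM in the Q20 libraries, 238 and 255 in Q50, 278 and 249.9 in Q92 and 653 and 595 in Q111, with a slope of 1.39 (SE 0.32, adjusted p 0.0191). Mcm6 (ENSMUSG00000026355, chr1:128331590-128359664, minus strand) was 159 and 183 CPM in the Q20 libraries, 314 and 364 in Q50, 379 and 321 in Q92 and 474 and 539.7 in Q111, with a slope of 1.32 (SE 0.24, adjusted p 0.00803). Mcm7 (ENSMUSG00000029730, chr5:138164583-138172422, minus strand) was 248 and 260.2 CPM in the Q20 libraries, 190.5 and 220.5 in Q50, 398 and 387 in Q92 and 490.0 and 459.8 in Q111, with a slope of 1.06 (SE 0.24, adjusted p 0.0182). The gain in Mcm5 came mostly between Q92 and Q111, Mcm6 overlapped between Q50 and Q92, and Mcm7 was lower in Q50 than in Q20.

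**Figure D3:**
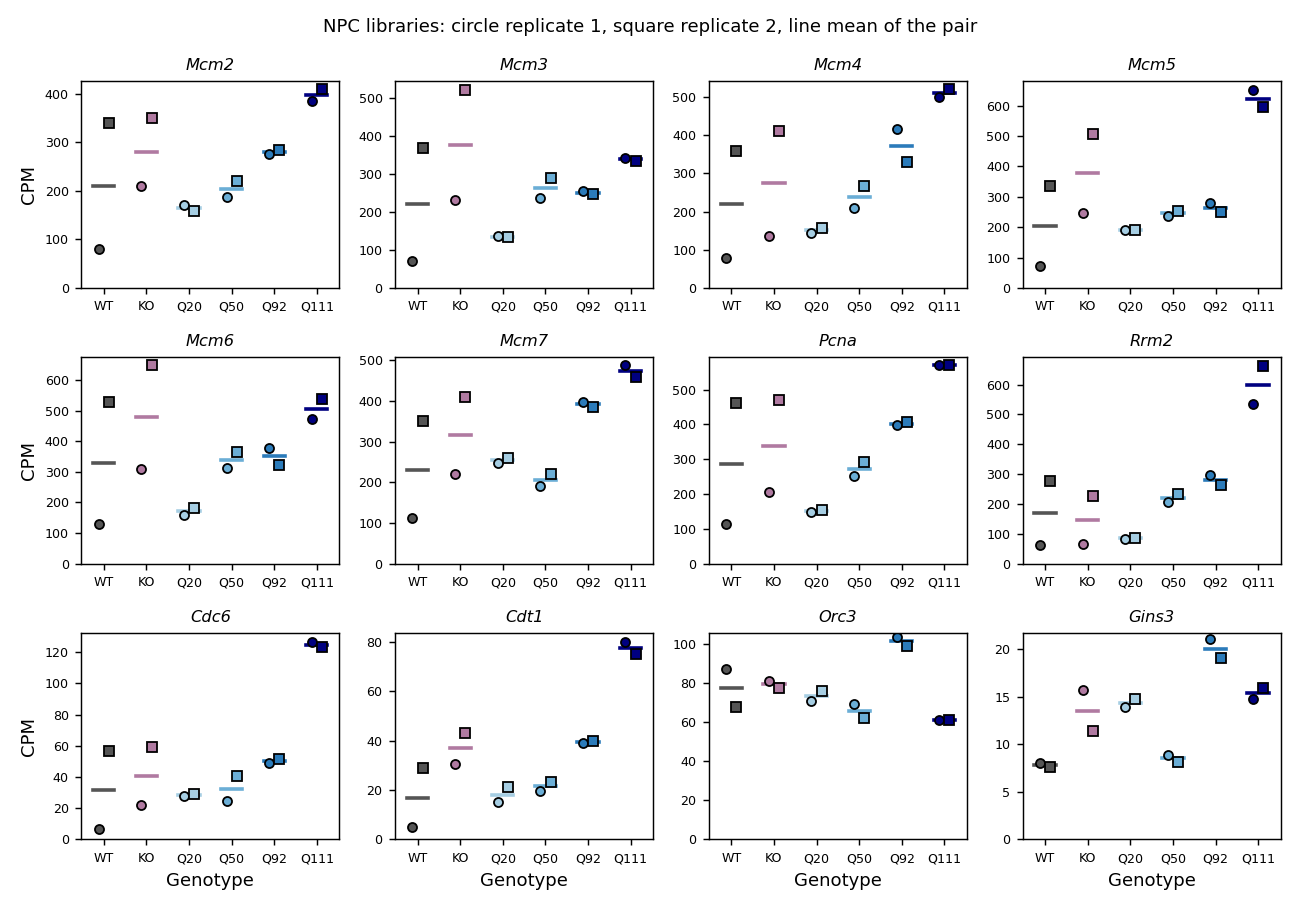
CPM (vertical axes, each from 0) of 12 replication genes in NPC by genotype (horizontal axis); circles are replicate 1, squares replicate 2 and lines the mean of both. Mcm2 to Mcm7, Pcna, Rrm2, Cdc6 and Cdt1 are highest in Q111 among the knock-in lines and split between the 2 WT libraries, while Orc3 is lowest in Q111 and Gins3 peaks in Q92.

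The MCM subunits assemble in equal numbers, so their levels were compared per kilobase of annotated exons, as group means in CPM per kb. Mcm2 was the lowest of the 6 in every genotype of both cell types, from 23.6 in Q20 to 57.2 in Q111 among NPC and from 72 in Q111 to 98.3 in WT among mESC. The highest subunit over Mcm2 was 2.32 to 2.73 in NPC and 1.75 to 2.82 in mESC. In NPC the highest was Mcm6 in WT, KO and Q50, Mcm7 in Q20, Mcm4 in Q92 and Mcm5 in Q111, so the order above Mcm2 changed between lines. Exon lengths are unions over transcripts, so the order depends on the annotation. By the median per kb over the 12 NPC libraries, Pcna was the highest of the 46 genes at 144 and Gins3 the lowest at 5.29; in mESC Mcm5 led at 207 and Gins3 was lowest at 5.95.

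Of the genes that activate the loaded helicase, 5 of 6 rose along the NPC lines. Cdc45, which with GINS completes the active helicase, was 41.4 and 43.3 CPM in the Q20 libraries, 53.0 and 58.6 in Q50, 89.4 and 89.8 in Q92 and 133 and 134 in Q111, a steady order without overlap between neighbouring lines, with a slope of 1.58 (SE 0.14, adjusted p 0.000828). Gins2 (ENSMUSG00000031821, chr8:120578633-120589304, minus strand) was 31.4 and 22.2 CPM in the Q20 libraries, 68.3 and 55.9 in Q50, 49.0 and 52.1 in Q92 and 113 and 115 in Q111, so Q111 was highest and Q92 lay between Q20 and Q50, with a slope of 1.59 (SE 0.39, adjusted p 0.0241). Gins1 (1.69, SE 0.29, adjusted p 0.00657), Gins4 (0.97, SE 0.25, adjusted p 0.0291) and Mcm10 (1.34, SE 0.26, adjusted p 0.00941), which helps to start unwinding, rose too. Gins3 (ENSMUSG00000031669, chr8:95633453-95645060, plus strand), the remaining GINS subunit, was 13.9 and 14.8 CPM in the Q20 libraries, 8.93 and 8.17 in Q50, 21.1 and 19.1 in Q92 and 14.8 and 16.0 in Q111. It was lowest in Q50, highest in Q92 and about the same in Q20 and Q111, and its slope was 0.49 (SE 0.37, adjusted p 0.37). The 4 GINS genes therefore did not move in step in these RNA values, although their products form a single complex.

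The sliding clamp and all 5 subunits of its loader rose. Pcna (ENSMUSG00000027342, chr2:132249162-132253314, minus strand), the clamp that tethers polymerases, was 149 and 155 CPM in the Q20 libraries, 252 and 291 in Q50, 399 and 406 in Q92 and 571 and 569.7 in Q111. The lines stood in the order of repeat length without overlap, and the 2 libraries lay close together in each line but Q50, for a slope of 1.79 (SE 0.14, adjusted p 0.000665), the smallest adjusted p of the 46 genes. Rfc3 (ENSMUSG00000033970, chr5:151642756-151651242, minus strand) was 49.1 and 47.3 CPM in the Q20 libraries, 74.5 and 79.7 in Q50, 88.2 and 76.5 in Q92 and 124 and 119 in Q111, where Q50 and Q92 overlapped, with a slope of 1.12 (SE 0.19, adjusted p 0.00556). Rfc1, the large subunit of the loader, had a slope of 0.87 (SE 0.11, adjusted p 0.0021). Rfc2 (1.03, SE 0.16, adjusted p 0.0044), Rfc4 (1.11, SE 0.18, adjusted p 0.00506) and Rfc5 (0.97, SE 0.22, adjusted p 0.0178) also rose.

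Of the 9 polymerase and primase genes, 8 rose. Pola1 (ENSMUSG00000006678, chrX:93304767-93632155, minus strand), the catalytic subunit of the priming polymerase alpha, was 54.8 and 63.1 CPM in the Q20 libraries, 126 and 132 in Q50, 215 and 195 in Q92 and 234 and 242 in Q111. The 4 lines did not overlap and stood in the order of repeat length, with a slope of 1.93 (SE 0.20, adjusted p 0.00101). Pole2, a subunit of the leading-strand polymerase epsilon, was 17.8 and 19.2 CPM in the Q20 libraries, 22.5 and 24.5 in Q50, 41.0 and 39.1 in Q92 and 52.1 and 52.2 in Q111, again in the order of length without overlap, with a slope of 1.47 (SE 0.15, adjusted p 0.000957). Pola2, the regulatory subunit of polymerase alpha, was 39.7 and 40.8 CPM in the Q20 libraries, 42.1 and 49.4 in Q50, 73.8 and 69.7 in Q92 and 85.6 and 88.3 in Q111, with a slope of 1.13 (SE 0.14, adjusted p 0.00172). Prim1 and Prim2, both primase subunits, had slopes of 1.54 (SE 0.15, adjusted p 0.000838) and 1.13 (SE 0.23, adjusted p 0.011). Pold1 (0.85, SE 0.13, adjusted p 0.00422), Pold2 (1.33, SE 0.33, adjusted p 0.025) and Pole (1.14, SE 0.13, adjusted p 0.0015) also rose, while Pold3, an accessory subunit of the lagging-strand polymerase delta, was 53.7 and 50.4 CPM in the Q20 libraries, 39.5 and 34.0 in Q50, 56.9 and 67.3 in Q92 and 60.8 and 61.2 in Q111 and did not pass (0.44, SE 0.25, adjusted p 0.244).

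RPA coats single-stranded DNA and FEN1 trims Okazaki fragments; of these 4 genes only Rpa2 rose, at 1.40 (SE 0.12, adjusted p 0.000828). Rpa1 (ENSMUSG00000000751, chr11:75298166-75348324, minus strand) was 319.8 and 305 CPM in the Q20 libraries, 222 and 249 in Q50, 293 and 277 in Q92 and 613 and 624 in Q111. Q50 and Q92 were below Q20 and Q111 was at about 2 times the Q20 level (ratio of means 1.98), so the slope of 0.84 (SE 0.38, adjusted p 0.148) rests on Q111 and turned to -0.12 without that line. Rpa3 was 18.2 and 20.6 CPM in the Q20 libraries, 14.9 and 17.5 in Q50, 27.6 and 29.8 in Q92 and 38.3 and 19.0 in Q111, with 1 Q111 library the highest of all and the other within the Q20 range, and a slope of 0.67 (SE 0.32, adjusted p 0.17). Fen1 was 17.9 and 28.0 CPM in the Q20 libraries, 62.1 and 67.0 in Q50, 37.7 and 104 in Q92 and 66.4 and 57.8 in Q111, where the Q92 libraries also disagreed, and its slope was 1.23 (SE 0.51, adjusted p 0.121).

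The 4 genes of nucleotide supply rose, and this class held the 2 largest slopes. Rrm2 (ENSMUSG00000020649, chr12:24708241-24714146, plus strand), the S-phase subunit of ribonucleotide reductase, was 81.5 and 87.4 CPM in the Q20 libraries, 206 and 234 in Q50, 296 and 263 in Q92 and 536 and 663 in Q111. The ratio of Q111 to Q20 means was 7.1, and the slope was 2.44 (SE 0.30, adjusted p 0.00179). Tk1 (ENSMUSG00000025574, chr11:117815526-117826092, minus strand), thymidine kinase of the salvage pathway and chosen for mention after its values were seen, was 27.6 and 27.6 CPM in the Q20 libraries, 50.7 and 62.2 in Q50, 91.0 and 94.7 in Q92 and 204 and 198 in Q111. Its ratio was 7.28 and its slope 2.58 (SE 0.23, adjusted p 0.000828). Rrm1, the large reductase subunit, was 218 and 244 CPM in the Q20 libraries, 396 and 463 in Q50, 555 and 519.7 in Q92 and 701 and 696 in Q111, with a slope of 1.46 (SE 0.18, adjusted p 0.00192). Tyms, thymidylate synthase, had a slope of 1.60 (SE 0.17, adjusted p 0.00112). Both fork protection genes rose as well: Tipin was 51.9 and 51.1 CPM in the Q20 libraries, 71.3 and 74.3 in Q50, 109.6 and 99.8 in Q92 and 145 and 125 in Q111, with a slope of 1.32 (SE 0.12, adjusted p 0.000828). Its partner Timeless was 58.7 and 59.2 CPM in the Q20 libraries, 55.5 and 58.0 in Q50, 90.7 and 93.7 in Q92 and 125 and 110.2 in Q111, with Q50 just below Q20 and a slope of 1.05 (SE 0.17, adjusted p 0.00561).

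The steps between NPC lines were uneven. Both Q50 libraries were above both Q20 libraries for 30 of the 46 genes (35% of all genes), both Q92 above both Q50 for 35 (39.2%), and both Q111 above both Q92 for 39 (35.9%). Group means rose in every step for 26 genes (8.58% of all genes), and the Q111 mean was the highest of the 4 lines for 40 (26.5%). The 10 genes with both Q50 libraries below both Q20 libraries were Orc3, Gmnn, Mcm7, Gins3, Mcm10, Pold2, Pold3, Rpa1, Rpa3 and Timeless (35.2% of all genes).

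Pairwise tests against Q20, in which all 12 NPC libraries share an estimate of spread, called fewer genes. The 3 tests share the Q20 libraries. For Q111 against Q20, 14 of 46 genes (30.4%) were called, a share near the 28.3% of all genes; all 14 were higher, against 12.2% of all genes, and the median log2 change was 1.31 against 0.03. They were Orc4, Orc6, Cdt1, Gins1, Gins2, Gins4, Pcna, Rfc1, Rfc3, Rfc4, Pola1, Prim1, Prim2 and Rrm2. Rrm2 changed by 2.81 (SE 0.69, adjusted p 0.0197), Gins2 by 2.07 (SE 0.53, adjusted p 0.0224), Pola1 by 2.00 (SE 0.43, adjusted p 0.0112) and Orc4 by 0.89 (SE 0.12, adjusted p 0.00142) (limma, n = 2 libraries per group). For Q92 against Q20, Orc3, Orc4 and Pola1 were called, all higher (3 of 46, against 25.8% of all genes called and 9.88% higher), with a median of 0.79 over the 46. For Q50 against Q20, Orc4 was higher (0.48, SE 0.12, adjusted p 0.0287, limma) and Gins3 lower (-0.68, SE 0.19, adjusted p 0.0409); these 2 compare with 18.8% of all genes called, 8.05% higher and 10.7% lower. The shared spread includes the WT and KO pairs, which differ widely in these genes. In fits without WT and KO, added after seeing the data, the counts were 42 for Q111 (41 higher and 1 lower, 51.2% of all genes), 39 for Q92 (all higher, 49.6%) and 30 for Q50 (24 higher and 6 lower, 38.1%). With all genotypes but without Q20 replicate 1, a single member was called for Q111 against Q20 (12.1% of all genes), and so it was without Q111 replicate 1 (12.6%) or replicate 2 (11.9%). That count was 2 without Q20 replicate 2 (14.2%), and 6 without any 1 library of Q50 (23.5%) or Q92 (22.5%). It was 36 without WT replicate 1 (41.5%) or replicate 2 (41.6%). For Q92 it was 11 without either WT library (37.8%) and 1 without any 1 library of Q20 or Q92 (12.3% to 14.3%). For Q50 it was 4 without either WT library (26.8%) and 0 without any 1 knock-in library (9.53% to 15.5%; 2 or 3 members at an unadjusted p under 0.05).

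The WT and KO libraries of NPC differed widely within their groups. WT replicate 2 was above replicate 1 for 42 of the 46 genes, by a median of 3.31-fold, and by over 2-fold for 38 (10.5% of all genes). Mcm2 was 80.3 and 341 CPM in the WT libraries, Pcna was 115 and 460.0 and Cdc6 was 6.76 and 57.0. KO replicate 2 was above replicate 1 for 44 genes, by a median of 2.09-fold, and by over 2-fold for 25 (5.01%). Mcm2 was 211 and 351 CPM in the KO libraries, Pcna was 206 and 471 and Cdc6 was 22.1 and 59.1. In the knock-in lines the same median fold was between 0.944 and 1.1. WT replicate 1 was the lowest of the 12 NPC libraries for 38 of 46 genes (17.5% of all genes), and both Q20 libraries lay between the 2 WT libraries for 38 (28.6%). Both Q111 libraries stood above the higher WT library for 39 genes (31.4%); the exceptions were Orc2, Orc3, Mcm3, Mcm6, Pold1, Pole and Fen1. For Mcm3 and Pold1 all 8 knock-in libraries lay within the range of the 2 WT libraries (2.84% of all genes).

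With such pairs, no replication gene was called for KO against WT in NPC (limma, 0 of 46, against 1.42% of all genes; 6 at an unadjusted p under 0.05, and 0 called by edgeR). Of all 13206 genes, 1755 were at an unadjusted p under 0.05 by limma. The median log2 change was 0.46 and 43 of 46 estimates were positive. Within replicate 1 the median KO minus WT difference was 0.80, with 43 genes higher in KO, and within replicate 2 it was 0.21, with 39 higher. Without WT replicate 2, 11 genes were called (11.9% of all genes), and in each other fit that left out a library none was. The NPC replicate numbers did not separate all lines in this way, and a test of replicate 2 against replicate 1 over the 6 genotypes called 0 of 46 by limma and 0 by edgeR (0% of all genes; 2 of 46 at an unadjusted p under 0.05 by each). By limma its median log2 change over the 46 was 0.49, with 44 positive, against 0.01 over all genes. Of all 13206 genes, 816 were at an unadjusted p under 0.05 in that limma test. For Q20 against WT a single gene was called, Gins3, which was 8.08 and 7.66 CPM in WT and 13.9 and 14.8 in Q20, a log2 change of 0.79 (SE 0.19, adjusted p 0.028) by limma (14.5% of all genes called). In a fit with only those 4 libraries none was called, and the shared fit called 9 without WT replicate 1 (21.6% of all genes), 8 without WT replicate 2 (16.9%) and 0 without any 1 library of Q20, Q92 or Q111 (7.68% to 11.8%). Among the 6 genotypes in any pattern, Orc3, Orc4, Orc6, Gins3 and Pola1 differed (5 of 46 by limma's F test, against 38% of all genes), and without WT replicate 2 the count was 38 (59.1%), without WT replicate 1 it was 21 (52.9%), and without any 1 knock-in library it was 2 (23.9% to 28.3%).

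No replication gene passed the test for repeat length in mESC. The CAG trend called none of 46 by limma and none by edgeR (0% of all 13916 genes; 1 of 46 at an unadjusted p under 0.05 by limma and 2 by edgeR), and the median log2 change was -0.01, with 23 of 46 positive. Estimates ran from -0.84 for Gins3 to 0.59 for Rpa3. The 5 pairwise comparisons called 0 of 46 each, both by limma and by edgeR. Of all genes limma called 0.0144% for KO against WT, 0.323% for Q20 against WT, 0.00719% for Q50 and for Q92 against Q20, and 0% for Q111 against Q20. The members at an unadjusted p under 0.05 by limma numbered 2 for KO against WT, 5 for Q20 against WT, and 5, 2 and 0 for Q50, Q92 and Q111 against Q20. Of all 13916 genes, 553, 1716, 887, 747 and 374 passed that cut, in the same order of comparisons. The F test over 6 genotypes also called 0 by both tools (0.201% of all genes; 7 of 46 at an unadjusted p under 0.05). By limma, 358 of all 13916 genes passed that unadjusted cut in the CAG trend and 1379 in the F test.

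Replicate numbers paired the mESC libraries, so fits with the replicate number as a block are given where they changed a call. For Q20 against WT in mESC, the block gave 7 called genes of the 46, 5 lower and 2 higher. Of all genes 10.6% were called in either direction, and their split by direction was not counted. Mcm6 was 855 and 656 CPM in WT and 569 and 534 in Q20, a blocked change of -0.44 (SE 0.10, adjusted p 0.0336). Pole2 was 87.9 and 80.2 and 58.3 and 47.0, a blocked change of -0.67 (SE 0.12, adjusted p 0.0191). Orc3, Mcm7 and Pola1 were also lower. Cdc6 was 97.0 and 91.8 in WT and 135 and 145 in Q20, a blocked change of 0.57 (SE 0.14, adjusted p 0.0443), and Orc6 was higher too. Some cell type markers also differed between Q20 and WT in mESC. Of 7 feeder fibroblast markers Col1a1 and Col1a2 were called higher in Q20 without the block. The median log2 change over the 7 was 1.15, but only 5 were positive and the range was -1.75 to 3.66. By limma 6 of the 7 were at an unadjusted p under 0.05. The sum of the list was 39.0 and 32.5 CPM in WT and 50.9 and 75.1 in Q20. The 9 pluripotency markers had a median of -0.66 with none positive and none called by limma (2 at an unadjusted p under 0.05), and their sum was 3909 and 3530.0 in WT and 2060.3 and 2814 in Q20. The 7 neural progenitor markers tested had a median of 0.83 with all 7 positive and none called (1 at an unadjusted p under 0.05), and the sum of the 9 in the table was 139 and 193 in WT and 336 and 534 in Q20. The 7 neuron markers (median 0.59) and 5 astrocyte markers tested (median 0.61) had none called, with 1 and 0 at an unadjusted p under 0.05. Their sums overlapped between WT and Q20. The neuron sum was 356 and 501 CPM in WT and 397 and 437 in Q20. The astrocyte sum was 88.5 and 21.2 in WT and 68.8 and 76.2 in Q20. Sox1, Fabp7, Olig2, Hes5, Snap25, Aqp4 and Col3a1 were at 0 in at least 1 mESC library. The part of these markers in the blocked calls was not tested. Both Q20 libraries lay below both WT libraries for 23 of the 46 genes (20.4% of all genes). With the block the F test over genotypes called Cdc6, Mcm3, Mcm6 and Pole2, a share of the 46 genes near the 8.67% of all genes. Mcm3 was 614 and 603 CPM in WT, 969 and 859 in KO, 414 and 559 in Q20, 740.2 and 813 in Q50, 490.1 and 508 in Q92 and 419 and 469 in Q111. Its KO and Q50 libraries were the highest and the Q111 and Q20 replicate 1 libraries the lowest, a pattern that does not track repeat length, and KO includes the library labelled KO 1.

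Of the mESC comparisons, replicate number called the most genes, both of the 46 and of all genes, without a shared direction among the 46. Replicate 2 against replicate 1, with genotype in the model, called 14 of 46 genes (30.4%, against 43.3% of all genes), 8 higher (20.5% of all genes) and 6 lower (22.8%), with 23 of the 46 estimates positive. Mcm5 was higher in replicate 2 in each of the 6 genotypes, at 602 and 776 CPM in WT, 683 and 913 in KO, 745 and 980.4 in Q20, 843 and 1018 in Q50, 808 and 1020.0 in Q92 and 671 and 935 in Q111, a log2 change of 0.38 (SE 0.05, adjusted p 0.000895) by limma. Rpa1 rose by 0.51 (SE 0.08, adjusted p 0.00166), and Tk1, Timeless, Rpa2, Orc2, Rfc5 and Pola2 were also higher. Pola1 was lower, at 433 and 288 CPM in WT, 386 and 351 in KO, 285 and 163 in Q20, 318 and 261 in Q50, 330.0 and 221 in Q92 and 289 and 210.3 in Q111, a change of -0.47 (SE 0.09, adjusted p 0.00469), and so were Orc3, Mcm6, Cdc45, Rfc1 and Pold2. Mcm5 and Mcm6, subunits of 1 ring, thus moved in opposite directions between mESC replicates.

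The NPC and mESC slopes were compared by the interaction of cell type and CAG length over 16 knock-in libraries. For 29 of the 46 genes the NPC slope was higher, by limma over 12321 genes tested in both tables, and for none was it lower. Over all genes 4.86% were called and 2.7% had the higher slope in NPC. The median difference over the 46 genes was 1.30 log2 over the length range, against 0.05 over all genes. Pcna was 391 and 437 CPM in the Q20 libraries, 404 and 455 in Q50, 442 and 469.9 in Q92 and 423 and 414 in Q111 of mESC, a flat series with a slope of 0.06 (SE 0.14, adjusted p 1), and its slope difference was 1.73 (SE 0.19, adjusted p 0.000274). Rrm2 was 267 and 254 CPM in the Q20 libraries, 261 and 287 in Q50, 306 and 301 in Q92 and 207 and 267 in Q111 of mESC, and its slope difference was 2.49 (SE 0.36, adjusted p 0.00179). Mcm3, Mcm7, Orc4, Gins2 and Pold2, which rose in NPC, did not pass the test of the difference, nor did the 10 genes whose NPC slope was not called, or Gins4 and Rfc5. With 1 mean value per line none was called (33 of 46 at an unadjusted p under 0.05). Over all genes the number at that unadjusted p was not counted for this fit. In the fit on 16 libraries it was 38 of the 46 and 2521 of the 12321. Without the Q20 line, an alternative added after seeing the data, 15 were called (1.83% of all genes). Without Q111 replicate 1 of NPC the count was 19 (3.24%).

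**Figure D4:**
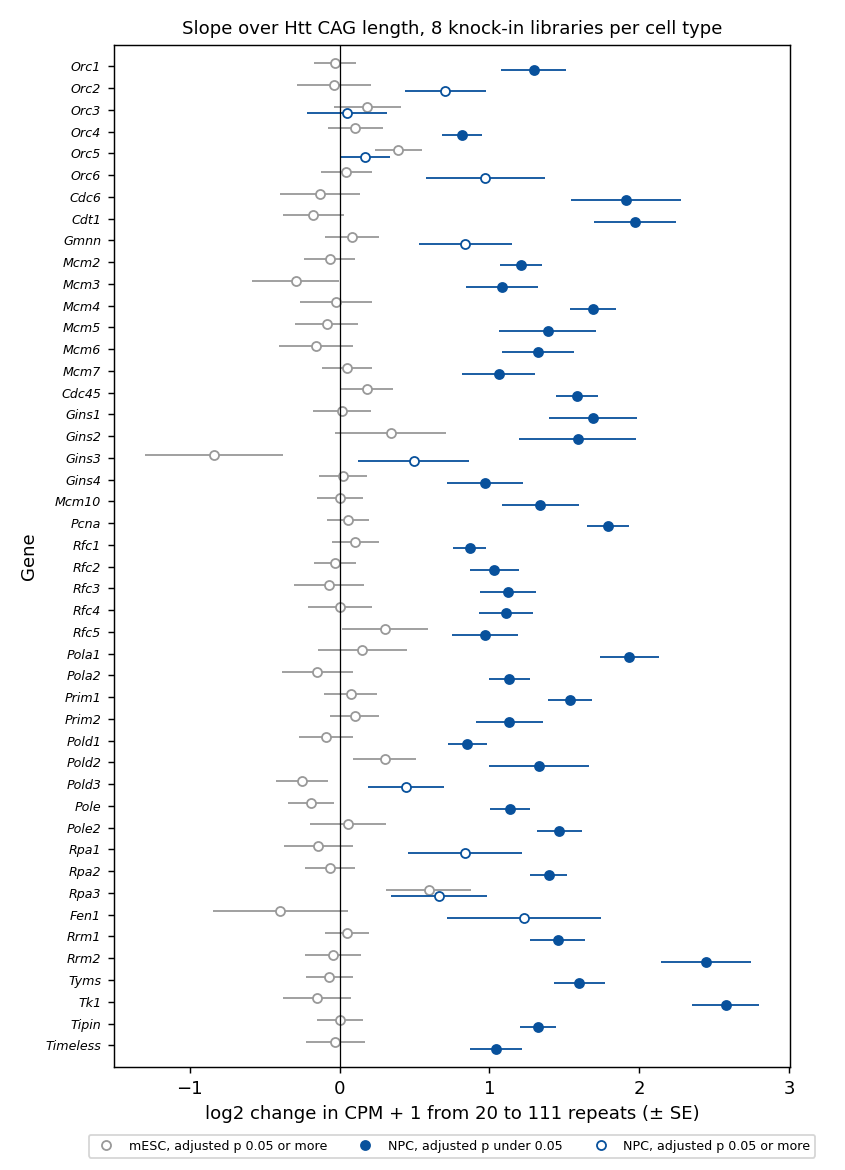
Log2 change of CPM + 1 over the range from 20 to 111 CAG repeats (horizontal axis, with SE) for each replication gene (vertical axis), from 8 knock-in libraries per cell type; grey is mESC, blue is NPC and filled points passed the adjusted p threshold. The NPC points lie between 0.05 and 2.58 with 36 filled, and no mESC point is filled.

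Within NPC the members moved largely together. Over the 12 libraries, the level of a gene was correlated (Pearson) with the median over the 46 genes, as a description in which libraries share depth and scaling. Each of the 46 is part of that median, so a higher share among them than among all genes is partly built in. Between pairs of the 46 genes, without that median, the median r was 0.857 in NPC and 0.0948 in mESC. In NPC r exceeded 0.8 for 39 of the 46 genes (10.1% of all genes), and the genes with the lowest r were Orc3 (-0.235), Gins3 (0.334) and Orc5 (0.372), then Orc4, Rpa3, Orc2 and Pold3 between 0.680 and 0.707. Of the ORC subunits only Orc1 and Orc6 were therefore among the 39. In mESC r exceeded 0.8 for 1 gene, Orc1 (0.848; 0.453% of all genes passed), and the lowest were Cdc6 (-0.713) and Orc6 (-0.646). The genes outside the list whose NPC pattern was most like the median were Lig1, Ppa1, Chaf1a, Recql4, Zwilch, Eif2s1, Umps, Tomm40, Rbbp7 and Slbp, with r from 0.984 to 0.992. Among the 37 genes with a promoter window, the 14 with an E2F match had a median NPC slope of 1.21, with 11 called, and the 23 without one had a median of 1.21, with 17 called.

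A further list of 35 replication fork and origin firing genes moved mostly the same way: along the NPC lines 24 rose and 1 fell by limma, with a median of 1.24. In that test 12% of all genes rose and 10.1% fell, which are the shares to set beside the counts of each list here. Clspn, the fork checkpoint mediator, was 43.2 and 42.5 CPM in the Q20 libraries, 63.4 and 75.0 in Q50, 120.4 and 107 in Q92 and 169 and 161 in Q111, with a slope of 1.85 (SE 0.13, adjusted p 0.000541). Chaf1b, a subunit of the histone chaperone that works behind the fork, was 43.3 and 42.0 CPM in the Q20 libraries, 49.2 and 56.7 in Q50, 77.2 and 76.3 in Q92 and 147 and 145 in Q111, with a slope of 1.61 (SE 0.23, adjusted p 0.00309). Pold4, the smallest polymerase delta subunit, was the gene that fell, from 14.4 and 13.3 CPM in Q20 to 8.29 and 5.19 in Q111 (-1.09, SE 0.30, adjusted p 0.0346). Of 18 G1-S cyclins, kinases and E2F factors, 10 rose and 1 fell. Ccnd1, the G1 cyclin D1, was 130.2 and 140.3 CPM in the Q20 libraries, 1677 and 2029.9 in Q50, 1692 and 1808 in Q92 and 2298 and 2128 in Q111, with a slope of 3.44 (SE 0.87, adjusted p 0.027); it was 63.4 and 1167 in WT and 809 and 1405 in KO. Ccne2, an S-phase entry cyclin, was 7.9 and 10.6 CPM in the Q20 libraries, 51.2 and 42.4 in Q50, 52.9 and 39.6 in Q92 and 81.7 and 92.1 in Q111, with a slope of 2.60 (SE 0.51, adjusted p 0.0102). Ccnd3, cyclin D3, fell, with a slope of -0.83 (SE 0.23, adjusted p 0.0372). Of 20 mitosis genes 19 rose, with a median of 1.13. Of 14 cell cycle inhibitors and pocket proteins 2 rose and 2 fell, which is near the shares of all genes. Rbl1, which is itself an E2F target, changed by 1.24 (SE 0.21, adjusted p 0.00606, limma). Rbl2, the pocket protein of quiescent cells, changed by -0.58 (SE 0.13, adjusted p 0.019). In mESC none of these 4 lists had a called gene in the trend by limma, nor a gene at an unadjusted p under 0.05 (0 of 35, 0 of 18, 0 of 20 and 0 of 14).

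Markers of other cell types moved along the same NPC lines, where the trend called 12% of all genes higher and 10.1% lower. The summed level of 7 astrocyte markers was 3989.8 and 3462 CPM in Q20, 2259 and 1999 in Q50, 536 and 573 in Q92, and 787 and 779 in Q111, and 5 of the 7 fell. They were 2679 and 1569.6 in WT and 2611 and 1509.8 in KO, so within WT and within KO the library with the lower replication gene sum had the higher marker sum. This order was not particular to astrocyte markers. The neural progenitor sum was 7527 and 6709 CPM in WT and 8079 and 5625 in KO. The neuron sum was 1638 and 1260 in WT and 1411 and 1362 in KO. The fibroblast sum was 301 and 118 in WT and 131 and 82.8 in KO. The pluripotency sum had this order in KO (18.6 and 11.7) but not in WT (9.27 and 10.1). The sum of 8 feeder fibroblast markers was 461 and 444 in Q20, 1069 and 1038 in Q50, 7.56 and 9.85 in Q92, and 98.4 and 99.3 in Q111, and 5 of the 8 fell. The sum of 8 neuron markers was 753 to 1638 over the 12 libraries, and 1 of the 8, Dcx, fell. The sum of 9 neural progenitor markers was 4007 and 4191 in Q20, 9214 and 9383 in Q50, 6483 and 6687 in Q92, and 5427 and 6187 in Q111, so it was highest in Q50. Nes and Olig2 rose and Hes5 fell, while 3 of the 9 slopes were positive and their median was -0.32. Of 4 pluripotency markers tested, 2 fell and 1 rose; the sum of the 6 in the table was 108 and 106 in Q20 and 4.76 to 26.6 elsewhere. No astrocyte or fibroblast marker was at 0 in any NPC library; Stmn2, Sox1, Pou5f1, Tfcp2l1 and Tdgf1 were at 0 in at least 1. The markers' part in the change of the replication genes was not tested.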

How the data were processed

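Total RNA of 24 libraries was sequenced as 75-base paired reads, per the labels. Per the submitters' processing notes, STAR, CASAVA 1.8 and GRCm38.p6 were used; the counter and annotation are not given in the sources used here. The deposited values are named CPM, but the authors' columns sum to 900342 to 1080734, so the unit was taken as a scaled signal and not plain CPM as the design had assumed, with the same tests. Every value came out as whole reads within 0.01 read. The 46 members and all other lists were chosen with earlier results of these data known. log2(CPM + 1) was fitted with limma 3.58.1 (trend, R 4.3.3), keeping genes that reached 1 CPM in 2 or more libraries. The 6 genotypes of a cell type shared the spread, and two-sided p-values were Benjamini-Hochberg adjusted over all genes of each of 17 comparisons (threshold 0.05). edgeR 4.0.16 on recovered reads was an alternative, and the fits were tested on simulated data. Replicates are labelled biological samples, 2 per group. Same-numbered mESC libraries deviated together in 15 of 15 genotype pairs (r 0.25 to 0.547), so the numbers were taken to pair them; in NPC 3 of 15 pairs passed r of 0.1. Statistics were given in full for the member of each role class with the smallest p in a genotype test, Mcm2 to Mcm7, Pcna and members moving against their class. Orc1, Orc3, Cdc45, Gmnn, Pold3, Rrm1, Fen1 and Tk1 were added after their values were seen. Of other lists, up to 2 genes per direction were named. Promoters came from RefSeq (GRCm38.p6) and gene positions from GENCODE M21 (GRCm38).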

Additional observations from a re-analysis of the deposited data

Results flagged for a closer look

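The difference between cell types stood out: 29 replication genes had a higher CAG slope in NPC than in mESC by limma's interaction test over 16 knock-in libraries, all at an adjusted p under 0.05. Over all genes 4.86% were called and 2.7% were called with the higher slope in NPC. The count was 15 without the Q20 line (1.83% of all genes) and 0 with 1 mean value per line (33 at an unadjusted p under 0.05, a cut not counted over all genes in that fit). Among the genes described in full, the slope difference in log2 units over the length range was 2.04 for Cdc6, 2.15 for Cdt1, 1.28 for Mcm2, 1.71 for Mcm4, 1.47 for Mcm5 and 1.48 for Mcm6. It was 1.73 for Pcna, 1.19 for Rfc3, 1.78 for Pola1, 1.28 for Pola2, 1.41 for Pole2 and 2.49 for Rrm2. For the fork protection genes it was 1.32 for Tipin and 1.07 for Timeless. Groups held 2 libraries each, too few to test single libraries as outliers within a group.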

How the results depend on the processing

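The NPC CAG trend called 36 members under another pseudocount, filter, scaling or edgeR, 35 with the replicate block, 32 on log2 length, 29 without the Q20 line, 22 without the Q111 line and 0 with 1 mean value per line; leaving out 1 library gave 29 to 37. The slope difference gave 30 with the block, 15 without the Q20 line (added after seeing the data), 0 with 1 mean value per line, and 19 to 30 without a library. For Q111 against Q20 in NPC the count of 14 became 42 with only both groups, 42 with the 8 knock-in libraries (added after seeing the data), 7 with WT as the reference and 18 with the block, and 1 to 36 without a library: 36 without either WT library, 17 without either KO library, 6 without a Q50 or Q92 library and at most 2 without a Q20 or Q111 library. For Q92 the 3 became 37, 39 and 1 under the first 3 of these settings and 1 to 11 without a library. For Q50 the 2 became 21, 30 and 0, 1 with no filter, and 0 to 4 without a library. Q20 against WT in NPC went from 1 to 0 with only both groups and to 0 to 9 without a library. KO against WT gave 0 to 11, and the F test of any genotype 2 to 38, without a library. The NPC replicate numbers went together for WT and KO (r 0.467), WT and Q50 (0.17) and KO and Q50 (0.106) but not for the other 12 pairs of genotypes, so they were not taken to pair the libraries. The replicate block gave 0 for KO against WT in NPC (6 at an unadjusted p under 0.05), as without it, and changed no other NPC count by over 1.5 times. That block fits 1 replicate difference over all 6 genotypes. The knock-in lines did not share the split of WT and KO, so the block removes only part of it. A paired fit of the WT and KO libraries alone was not run. In mESC the replicate block raised Q20 against WT from 0 to 7 and the F test from 0 to 4, and leaving out a library gave 0 in every genotype comparison and 11 to 16 for replicate number. Signs turned for the mESC KO against WT median (-0.05 with all libraries, -0.077 to 0.030 without 1), the mESC Q92 median against WT (-0.17), Rpa3 in Q111 against Q20 without a Q111 library (-0.029 without replicate 1, 0.95 without replicate 2) and Rpa1 in the NPC trend without the Q111 line (-0.12). The share of all genes called moved with the setting too. With the 8 knock-in libraries it went from 28.3% to 51.2% for Q111 against Q20 in NPC. It went from 25.8% to 49.6% for Q92 and from 18.8% to 38.1% for Q50. For the NPC trend it was 22%, 14.2% without the Q20 line and 17.4% without the Q111 line. A count alone therefore does not set these genes apart from all genes. For settings not named here or above, that share is not given. Causes were not tested. Each allele is 1 line, each group has 2 libraries, and where an arm was left with 1 library it was assumed to vary like the other groups.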

Other observations

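In mESC the mitosis genes separated the replicate numbers more uniformly than the replication genes did. The summed level of 20 mitosis genes was 8960 to 10648 CPM in the 6 replicate 1 libraries and 6700.1 to 8121 in the 6 replicate 2 libraries, with no overlap. By limma 14 of the 20 were called between replicates, 11 lower and 3 higher in replicate 2, against 43.3% of all genes, with a median log2 change of -0.21. In NPC none of the 20 was called between replicates by limma, with 2 at an unadjusted p under 0.05, and the median was 0.50.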
